A study of Homo sapiens with 18 samples.

Results

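The 10 snoRNA host genes GAS5, SNHG1, SNHG5, SNHG6, SNHG7, SNHG8, SNHG12, SNHG15, SNHG16 and ZFAS1 were followed by symbol in the raw count table, in which they are 10 of 43735 genes. A host gene carries small nucleolar RNAs (snoRNAs) in its introns. Splicing releases the introns, and the snoRNAs trimmed from them guide ribose methylation (box C/D snoRNAs) or pseudouridylation (box H/ACA snoRNAs) of ribosomal RNA. The spliced exons of these genes form a long noncoding RNA, and several such RNAs start with a pyrimidine tract and are degraded by nonsense-mediated decay (NMD) while they are translated. GAS5 RNA is also known to bind the glucocorticoid receptor, the product of NR3C1, whose loss marks glucocorticoid-resistant myeloma cells.

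RNA-seq was done on 2 established human multiple myeloma lines, the glucocorticoid-sensitive MM1S and its glucocorticoid-resistant counterpart MM1R. Cells were left untreated, were given 5 µM RSL3 for 3 h, or were given 2 µM Fer-1 for 2 h before the same RSL3 treatment. RSL3 inhibits the lipid peroxide reductase GPX4 and thereby induces ferroptosis, and Fer-1 (ferrostatin-1) traps lipid radicals. The 6 groups held 3 libraries each, and replicates 1, 2 and 3 were passages 4, 6 and 7 of MM1R and passages 16, 22 and 23 of MM1S, so every passage gave 1 library per treatment. Each line is a single cell line, no group received Fer-1 alone, and the passage is the only source of replication, so a difference between MM1R and MM1S compares 2 cultures of different passage. The 18 libraries held between 17635438 and 19368343 counts, and each member had at least 238 counts in every library. All 10 members passed the filter on low counts.

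The labels were checked on marker genes first. Levels are TMM-scaled counts per total count (CPM). NR3C1 averaged 14.4 ± 0.526 CPM (SD, n = 3) without treatment in MM1R and 113 ± 33.9 CPM in MM1S. HMOX1, the heme oxygenase that oxidative stress induces, was higher after RSL3 in both lines. Its log2 fold change was 5.05 ± 0.80 (SE) for MM1R (false discovery rate, FDR, 0.00467, edgeR) and 6.53 ± 0.86 for MM1S (FDR 0.00177). With Fer-1 + RSL3 it stayed high, at 5.67 ± 0.82 and 6.67 ± 0.87 above the untreated cells. The plasma cell markers IRF4, XBP1 and SDC1 were abundant in untreated cells of both lines, while CD27 was near 0. Of 8 markers of other cell types, the B cell marker MS4A1 and the myeloid markers MPO and CD14 were at or near 0 in untreated cells, and EPCAM and COL1A1 averaged under 2 CPM. PECAM1 (20.3 CPM in MM1R and 20.7 CPM in MM1S), CD3E (9.47 and 5.70 CPM) and HBB (6.72 and 5.15 CPM) were present in both lines. The summed level of the 8 markers ran from 27.5 to 42.4 CPM in untreated libraries, from 31.8 to 46.9 CPM with RSL3 and from 27.02 to 38.8 CPM with Fer-1 + RSL3. COL1A1, a fibroblast collagen, was the only one of the 5 tested that was called in the averaged RSL3 comparison (1.94 ± 0.61, FDR 0.0398). A pair of libraries that stood apart was picked after the data were seen, and it is not the only departure. In one, labelled replicate 2 of MM1R Fer-1 + RSL3, NR3C1 stood at 50.2 CPM against 16.9 and 15.3 CPM in the rest of its group. The second, labelled replicate 1 of MM1S RSL3, had the lowest TMM scaling factor (0.864), HMOX1 at 2298 CPM against 310.2 and 434 CPM, NR3C1 at 392 CPM against 102 and 97.6 CPM, and COL1A1 at 19.5 CPM against 0.746 and 1.23 CPM. It also gave the 10 members their largest share of the counts, 0.0825%, against 0.0588% to 0.0810% in the other 17 libraries. The part of these differences in the results was not tested, so fold changes and medians of the members that rest on this pair of libraries are also given without it. Replicate 3 of MM1R RSL3 also differed from its group in HMOX1, at 1404 CPM against 237 and 243 CPM. That library was left out only in the fits that left out 1 library at a time.

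On hg19, SNHG7 lies at chr9:139615818-139622636 on the minus strand, SNHG12 at chr1:28905050-28909644 (minus), GAS5 at chr1:173827697-173838020 (minus), SNHG1 at chr11:62619450-62623425 (minus) and ZFAS1 at chr20:47894715-47916137 (plus), and all 10 members are annotated as long noncoding RNA genes (GENCODE release 44, lifted to GRCh37). By RefSeq positions, 35 snoRNAs lie within the 10 members, 28 of box C/D and 7 of box H/ACA. GAS5 holds 10, SNHG1 holds 8, SNHG16 and ZFAS1 hold 3 each, SNHG5 holds 2 and SNHG6 holds 1, all of box C/D. SNHG7 holds 2, SNHG8 holds 1 and SNHG15 holds 1 of box H/ACA, and SNHG12 holds 3 of box H/ACA and 1 of box C/D. To show what an intron of these genes yields, 3 box C/D snoRNAs that GENCODE places within a member on hg19 are printed 5′ to 3′. Capitals mark the core of box C (TGATG) near the start and box D (CTGA) near the end. SNORD99 held no TGATG, so only its box D is marked. Each lies in an intron of the canonical transcript.
SNORD78 in GAS5, chr1:173834760-173834824, minus strand: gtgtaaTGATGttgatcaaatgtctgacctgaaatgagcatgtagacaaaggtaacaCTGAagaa
SNORD12C in ZFAS1, chr20:47895477-47895565, plus strand: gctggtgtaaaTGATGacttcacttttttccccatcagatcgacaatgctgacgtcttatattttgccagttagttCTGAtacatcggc
SNORD99 in SNHG12, chr1:28905261-28905334, minus strand: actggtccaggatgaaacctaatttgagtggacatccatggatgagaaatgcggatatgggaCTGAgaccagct

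The start of each canonical GENCODE transcript was read because a pyrimidine tract at the first base is the known feature of transcripts whose translation follows growth signals. Capitals mark the run at the first base, 6 pyrimidines in GAS5 and 5 in ZFAS1.
GAS5: CTTTTCgaggtaggagtcgactcct
ZFAS1: CTTTCgcgtctgcggtgcccggagt
SNHG12 also began with a run of 5, and SNHG7 with a run of 4. A first-base run of at least 5 was thus present in 3 of 10 members (30%), in 59 of 78 ribosomal protein genes (75.6%) and in 4.56% of the 55064 canonical transcripts. The annotated first base differs between transcript models, so these shares describe 1 model per gene.

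Promoters were available for 8 of the 10 members in the RefSeq set (GRCh38.p14), where SNHG6 and SNHG15 were not matched. A TATA box (TATATAA or TATAAAA, either strand) lay 20 to 45 bases before the start in 4 of these 8 promoters (50%) and in 1.71% of 35116 promoters. The stretch from 40 bases before to 20 bases after the start is printed to show that shared element, with the match in capitals, followed by SNHG1, which had no such match.
SNHG7, chr9:136728165-136728224, minus strand: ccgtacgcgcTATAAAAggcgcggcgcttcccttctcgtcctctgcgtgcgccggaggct
SNHG12, chr1:28581854-28581913, minus strand: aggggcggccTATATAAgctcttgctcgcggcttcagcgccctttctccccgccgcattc
SNHG5, chr6:85678714-85678773, minus strand: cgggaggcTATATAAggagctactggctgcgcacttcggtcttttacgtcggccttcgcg
ZFAS1, chr20:49278602-49278661, plus strand: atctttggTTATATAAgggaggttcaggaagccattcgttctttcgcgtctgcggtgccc
SNHG1, chr11:62855866-62855925, minus strand: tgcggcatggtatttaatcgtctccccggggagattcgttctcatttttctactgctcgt
In ZFAS1, matches read on opposite strands start 32 and 31 bases before the start and overlap, so 8 letters are in capitals. In the whole windows of 300 bases, the E-box (CACGTG) was found in SNHG7 alone of the 8 members and in 7.26% of all promoters. The antioxidant response element core (TGACNNNGC), present in 13.3% of all promoters, and the C/EBP-ATF response element (TGATGNAA), present in 3.62%, were found in none of the 8. The heat shock element (GAANNTTC) was found in GAS5 alone and in 6.77% of all promoters. These are matches of letters in 1 window and describe no binding.

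RSL3 against untreated cells was the first comparison. SNHG7, which holds box H/ACA snoRNAs, was the only member that passed the test in a single line, and it did so in MM1S cells, where it rose by 0.58 ± 0.15 (log2 fold change, SE) or 1.49-fold (edgeR FDR 0.0401). No member passed in MM1R cells. The fold changes of the members were small throughout, between -0.25 and 0.31 on the log2 scale in MM1R cells and between -0.15 and 0.59 in MM1S cells. Among all 14281 genes, 3.36% passed in MM1R cells and 3.67% in MM1S cells, so 0 of 10 and 1 of 10 were near the background. The 95% intervals were wide against these sizes: that of SNHG8 ran from -0.20 to 0.72 in MM1R and from 0.13 to 1.05 in MM1S, so a member without a call is not shown to be unchanged.

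**Figure D1:**
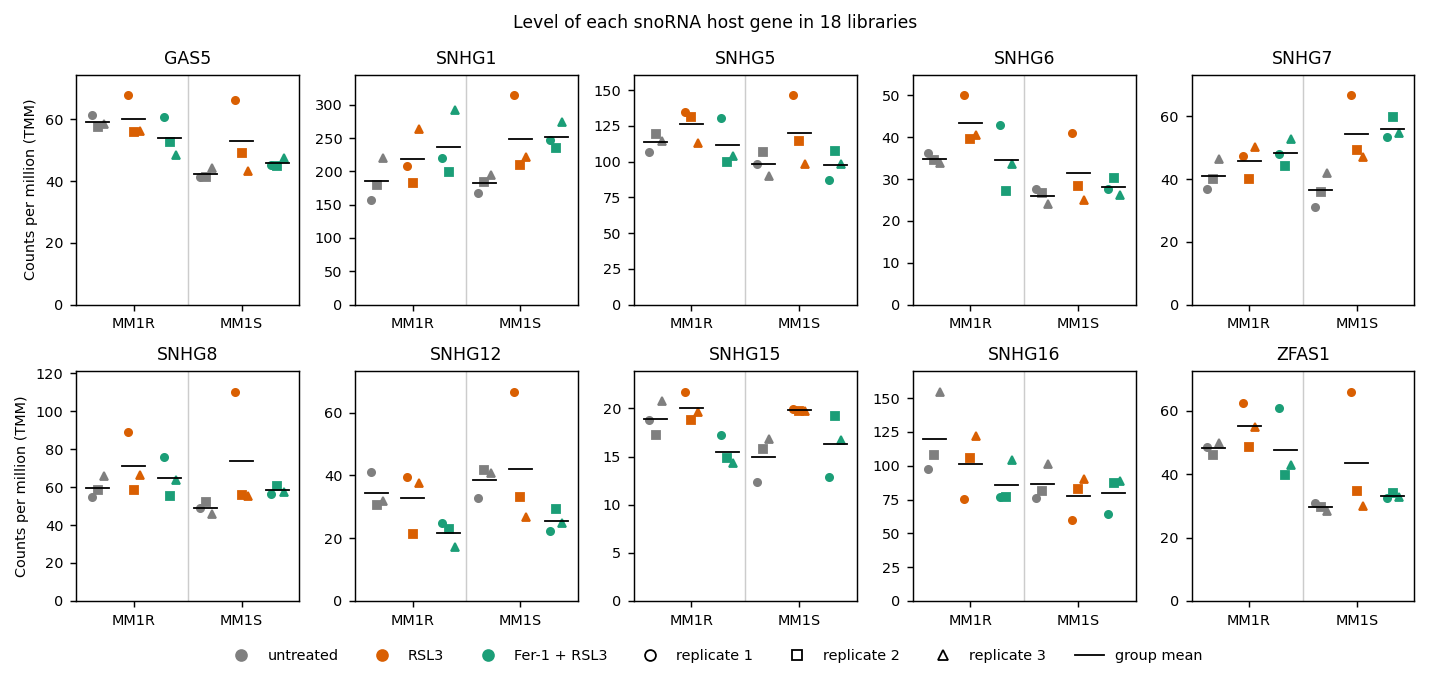
Level of each host gene in CPM (linear axis from 0) in the 18 libraries, by line and treatment. Symbols give the replicate and bars the mean of 3 libraries. Replicate 1 of MM1S RSL3 is the highest of the MM1S libraries for 9 of the 10 genes, SNHG16 being the exception.

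In MM1S cells, SNHG7 was at 31.2, 36.0 and 42.0 CPM without treatment and reached 66.6, 49.1 and 47.1 CPM with RSL3 (replicates 1, 2 and 3). The groups did not overlap, and replicate 1 had the largest distance. In MM1R cells, the levels were 36.7, 40.1 and 46.3 CPM without treatment and 47.4, 40.1 and 50.1 CPM with RSL3, and the groups overlapped. The fold change there was 0.16 ± 0.15 (FDR 0.627). The difference between the lines was -0.41 ± 0.21 (MM1R minus MM1S, 95% interval -0.85 to 0.02, FDR 1), so a difference between the lines was not shown. Of the 10 members 1 lay above 0 in this difference, as did 48.4% of all genes. None was called and none had an unadjusted p under 0.05, against 0% and 1.55% of all genes, and DESeq2 called none. Without MM1S RSL3 replicate 1, 5 lay above 0 and the median moved from -0.25 to 0.02.

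SNHG8 and SNHG15, which also hold only box H/ACA snoRNAs, had values on the same side. SNHG8 was at 48.7, 52.0 and 45.7 CPM in untreated MM1S cells and at 110.2, 55.9 and 55.1 CPM with RSL3. Its groups did not overlap, but replicates 2 and 3 were close to the untreated level, and the fold change of 0.59 ± 0.22 did not pass (FDR 0.145). In MM1R cells SNHG8 was at 54.8, 58.4 and 65.6 CPM without treatment and at 89.3, 58.3 and 66.5 CPM with RSL3, so replicate 1 alone was above the untreated range by more than 1 CPM. SNHG15 was at 12.3, 15.8 and 16.8 CPM in untreated MM1S cells and at 19.9, 19.7 and 19.7 CPM with RSL3. The RSL3 libraries of SNHG15 were nearly level (SD 0.109) and all above the untreated ones, with a fold change of 0.40 ± 0.15 (FDR 0.149). In MM1R cells SNHG15 changed by 0.09 ± 0.15 (FDR 0.828) with overlapping groups.

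Among the hosts of box C/D snoRNAs, SNHG1 was at 167, 184 and 195 CPM in untreated MM1S cells and at 314, 210 and 222 CPM with RSL3. The groups did not overlap, and the fold change was 0.45 ± 0.18 (FDR 0.183). ZFAS1 was at 31.0, 29.6 and 28.3 CPM in untreated MM1S cells and at 65.9, 34.6 and 29.9 CPM with RSL3. Replicate 1 stood far above the others, the groups overlapped, and the fold change was 0.55 ± 0.22 (FDR 0.181). GAS5, at 41.2, 41.5 and 44.3 CPM without treatment and 66.3, 49.1 and 43.3 CPM with RSL3, had a fold change of 0.32 ± 0.14 (FDR 0.203) with overlapping groups. In MM1R cells its change was 0.02 ± 0.13 (95% interval -0.26 to 0.31). SNHG5 had fold changes of 0.15 in MM1R and 0.28 in MM1S cells, and SNHG6 of 0.31 and 0.27, with FDRs between 0.291 and 0.630. SNHG6 in MM1R cells did not overlap, with 36.2, 34.5 and 33.8 CPM untreated and 50.01, 39.6 and 40.5 CPM with RSL3.

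SNHG16 in both lines and SNHG12 in MM1R cells lay below 0. SNHG16, the host of SNORD1A, SNORD1B and SNORD1C, had fold changes of -0.25 ± 0.22 in MM1R and -0.15 ± 0.22 in MM1S cells (FDR 0.604 and 0.759). It was at 97.3, 108 and 155 CPM in untreated MM1R cells and at 75.5, 106 and 122 CPM with RSL3, so every library lay below the untreated one of its own passage while the groups overlapped. SNHG12, which holds snoRNAs of both kinds, was at 32.8, 41.8 and 40.9 CPM in untreated MM1S cells and at 66.6, 33.1 and 26.6 CPM with RSL3. Replicate 1 lay above and replicates 2 and 3 below their untreated libraries, and the fold change was 0.13 ± 0.28 (FDR 0.856).

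**Figure D2:**
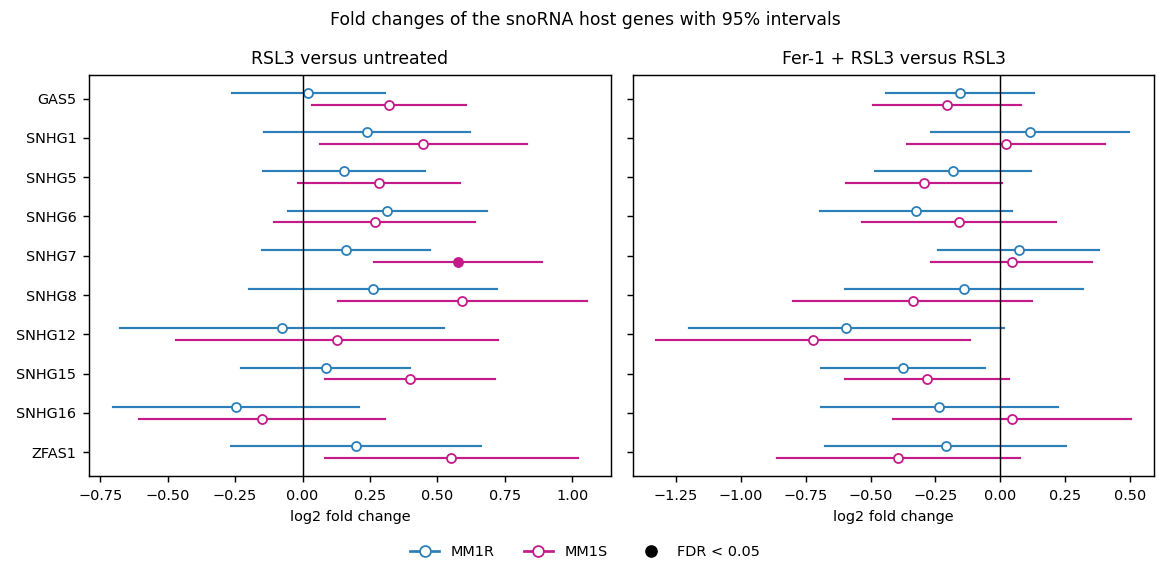
Log2 fold changes (points) with 95% intervals (lines) of the 10 host genes in each line, for RSL3 against untreated cells on the left and for Fer-1 + RSL3 against RSL3 on the right. A filled point passed the test, as SNHG7 did for MM1S on the left. Most intervals include 0.

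Of the 10 members, 8 had a fold change above 0 in MM1R cells (median 0.16) and 9 in MM1S cells (median 0.36), where 50% and 50.3% of all genes lay above 0 and the medians of all genes were near 0. In MM1S cells 6 members had an unadjusted p under 0.05, as had 19.5% of all genes, and in MM1R cells 0 members had, against 18.5% of all genes. The groups did not overlap for SNHG6 in MM1R cells and for SNHG1, SNHG7, SNHG8 and SNHG15 in MM1S cells, against 25.7% and 24.9% of all genes. Many of the members move together between libraries, so they are not 10 separate observations. Of the 45 pairs of members, 35 correlated above 0 (18 libraries, log2 CPM centred within each line, range -0.46 to 0.94). SNHG16 correlated above 0 only with SNHG15 (0.25). The median over the pairs was 0.47, and pairs of other genes were not compared. This median was 0.29 without MM1S RSL3 replicate 1 and 0.25 without both libraries that stood apart.

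Ratios were also taken within each passage. The highest of the 6 passage ratios was that of MM1S passage 16 for 9 members, and for SNHG16 it was that of MM1S passage 22. At passage 16, the log2 ratio of RSL3 to untreated was 1.18 for SNHG8, 1.095 for SNHG7, 1.09 for ZFAS1, 1.02 for SNHG12 and 0.91 for SNHG1, with a median of 0.80 over the members. The medians at MM1S passages 22 and 23 were 0.15 and 0.10, and those at MM1R passages 4, 6 and 7 were 0.35, 0.01 and 0.07. SNHG1, SNHG6 and ZFAS1 were above 0 in 6 of 6 passages, and SNHG16 was below 0 in 5 of 6. Without the library MM1S RSL3 replicate 1, the median over the members in MM1S cells fell from 0.36 to 0.13. The fold change of SNHG7 was then 0.41, and its call was lost (FDR 0.208). SNHG15 stayed at 0.40, while SNHG1 was at 0.25, SNHG8 at 0.19, GAS5 and ZFAS1 at 0.13, SNHG5 at 0.12 and SNHG6 at 0.03. SNHG12 was then at -0.36 and SNHG16 at 0.01.

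**Figure D3:**
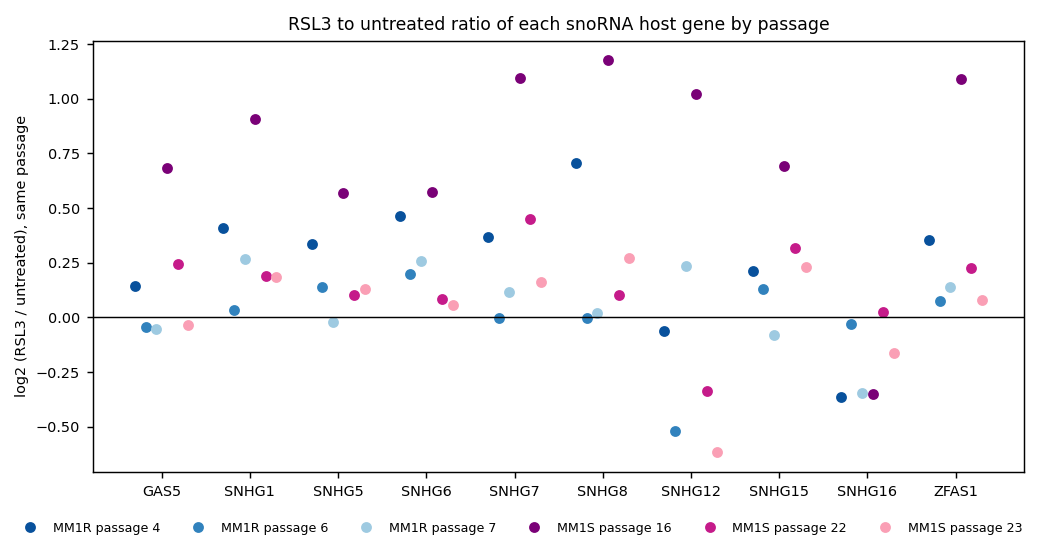
Log2 ratio of RSL3 to untreated CPM within each of the 6 passages for each host gene. MM1S passage 16 is the highest point for 9 genes, reaching 1.18 for SNHG8, while SNHG16 lies below 0 in 5 of 6 passages.

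Averaged over both lines, SNHG7 rose by 0.37 ± 0.10 (FDR 0.0254), and it was 1 of 10 members called where 15.5% of all genes were. At an unadjusted p under 0.05 there were 7 members, against 30.2% of all genes, and 9 lay above 0, against 50%. The largest fold change was 0.43 ± 0.15 (SNHG8, FDR 0.0709), and the next smallest FDRs were those of SNHG1 (0.34 ± 0.13, FDR 0.0787) and ZFAS1 (0.37 ± 0.16, FDR 0.115). Without MM1S RSL3 replicate 1 SNHG7 had a fold change of 0.29 and lost its call (FDR 0.0568). SNHG1 was then at 0.25, SNHG8 at 0.23 and ZFAS1 at 0.17. With the passage as a replicate block, 6 members were called, where 30.4% of all genes were: SNHG1, SNHG6, SNHG7, SNHG8 and SNHG15 were higher and SNHG16 was lower by 0.20 ± 0.07 (FDR 0.0407). In MM1S cells alone, the block gave 3 calls, SNHG1 (0.44, FDR 0.0402), SNHG7 and SNHG15 (0.41, FDR 0.0408), against 13.3% of all genes. In MM1R cells it gave 0 calls, against 13.1%.

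Fer-1 + RSL3 was next compared with RSL3, which asks whether a lipid radical trap changes the response. It shares the RSL3 libraries with the first comparison. No member passed the test in MM1R cells, in MM1S cells or in the average, where 0%, 0% and 0.119% of all genes did (edgeR), and DESeq2 called none either. Without a filter on low counts SNHG12 was called, at -0.60 in MM1R (FDR 0.0423), -0.70 in MM1S (FDR 0.00566) and -0.65 in the average (FDR 1.01e-05), where 0.973%, 1.11% and 2.05% of all genes were. At an unadjusted p under 0.05, SNHG15 was lower in MM1R cells (6.17% of all genes), SNHG12 in MM1S cells (5.75%), and SNHG5, SNHG12 and SNHG15 in the average (12.8%). With the passage as a replicate block, again 0 members were called, against 0.175%, 0.056% and 2.37% of all genes. Above 0 were 2 members in MM1R, 3 in MM1S and 2 in the average, where 51.4%, 48.9% and 50.4% of all genes were, and the medians of the members were -0.20, -0.24 and -0.24. Without MM1R Fer-1 + RSL3 replicate 2 the medians were -0.12 in MM1R and -0.18 in the average.

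SNHG12 had the largest difference, -0.66 ± 0.20 in the average (p 0.00485, FDR 0.199). It was at 39.5, 21.2 and 37.6 CPM with RSL3 and at 24.9, 22.9 and 17.3 CPM with Fer-1 + RSL3 in MM1R cells, and the groups overlapped. In MM1S cells the levels were 66.6, 33.1 and 26.6 CPM and 22.4, 29.4 and 24.7 CPM, and the distance was largest for replicate 1. Without MM1S RSL3 replicate 1 the averaged difference was -0.42. SNHG15 was lower with Fer-1 in 6 of 6 passages, with an averaged difference of -0.33 ± 0.11 (FDR 0.210), and it was the 1 member whose groups did not overlap in each line, against 13.4% of all genes in MM1R and 8.79% in MM1S. It was at 21.7, 18.8 and 19.7 CPM with RSL3 and 17.2, 14.9 and 14.4 CPM with Fer-1 + RSL3 in MM1R cells. SNHG5 also lay lower in 6 of 6 passages (-0.24 ± 0.10, FDR 0.337). SNHG7, SNHG1 and, in MM1S cells, SNHG16 had values above 0, and the 95% interval for SNHG7 in the average ran from -0.16 to 0.28. Without both libraries that stood apart, the median over the members in MM1S cells moved from -0.24 to 0.01, SNHG12 was at -0.43 and SNHG15 at -0.31 in the average.

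Fer-1 + RSL3 against untreated cells shared its untreated libraries with the first comparison. In MM1S cells SNHG7 rose by 0.62 ± 0.15 (1.54-fold, FDR 0.0231), with 53.4, 59.9 and 54.5 CPM against 31.2, 36.0 and 42.0 CPM and no overlap. It was the only member called, where 4.61% of all genes were. Without both libraries that stood apart, neither of which belongs to these groups, the value was 0.62 (FDR 0.00568). The call was lost in 5 of 18 fits that left out 1 library: without untreated replicate 1 (0.52, FDR 0.119) or 2 (FDR 0.0818), and without Fer-1 + RSL3 replicate 1 (FDR 0.0555), 2 (FDR 0.0902) or 3 (FDR 0.0536). At an unadjusted p under 0.05 SNHG1 joined it (18.8% of all genes), 7 members lay above 0 (49.7%), and 6 did not overlap (28.3%). In MM1R cells 0 members were called, against 9.22% of all genes. SNHG12 and SNHG16 had an unadjusted p under 0.05 (24.6%), 3 members lay above 0 (51.4%), and SNHG12 and SNHG15 did not overlap (30.6%). Without MM1R Fer-1 + RSL3 replicate 2, 6 members lay above 0 and the median moved from -0.02 to 0.07. In MM1R cells SNHG7 had a fold change of 0.23 ± 0.15 (FDR 0.349). SNHG12 lay below its untreated level in 6 of 6 passages, with fold changes of -0.67 ± 0.29 for MM1R (FDR 0.160) and -0.59 ± 0.29 for MM1S (FDR 0.275). Without MM1S RSL3 replicate 1, which is in neither group, SNHG12 passed in MM1R cells (-0.68, FDR 0.0407), and without both libraries it did not (-0.71, FDR 0.0884). With the passage block, SNHG16 was lower in MM1R cells by 0.47 ± 0.10 (FDR 0.00497, 22.2% of all genes called), and SNHG1 was higher in MM1S cells (0.47 ± 0.13, FDR 0.0273) beside SNHG7 (14.7% of all genes called).

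The untreated lines differed in GAS5. Its levels were 61.3, 57.5 and 58.5 CPM for MM1R against 41.2, 41.5 and 44.3 CPM for MM1S, with no overlap, and it was 0.48 ± 0.14 higher in MM1R cells (1.40-fold, FDR 0.0312). It was the 1 member of 10 that passed, where 10.5% of all genes did. ZFAS1, at 48.7, 46.1 and 49.7 CPM against 31.0, 29.6 and 28.3 CPM, had the larger difference of 0.70 ± 0.22 but missed the threshold (FDR 0.0534). DESeq2 called it (0.71, FDR 0.0238), and so did the fit without both libraries that stood apart (0.71, FDR 0.00155), which also called SNHG6 (0.43, FDR 0.0261). At an unadjusted p under 0.05 there were 5 members (24.8% of all genes). Of the 10 members 9 lay above 0, SNHG12 being the exception, where 48.8% of all genes did, and the groups of 6 did not overlap, against 32.4% of all genes. GAS5 lost its call when any 1 of the 6 untreated libraries was left out, with FDRs of 0.0712 to 0.101 and differences of 0.46 to 0.53. The cultures also differ in passage, and line and passage cannot be told apart.

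**Figure D4:**
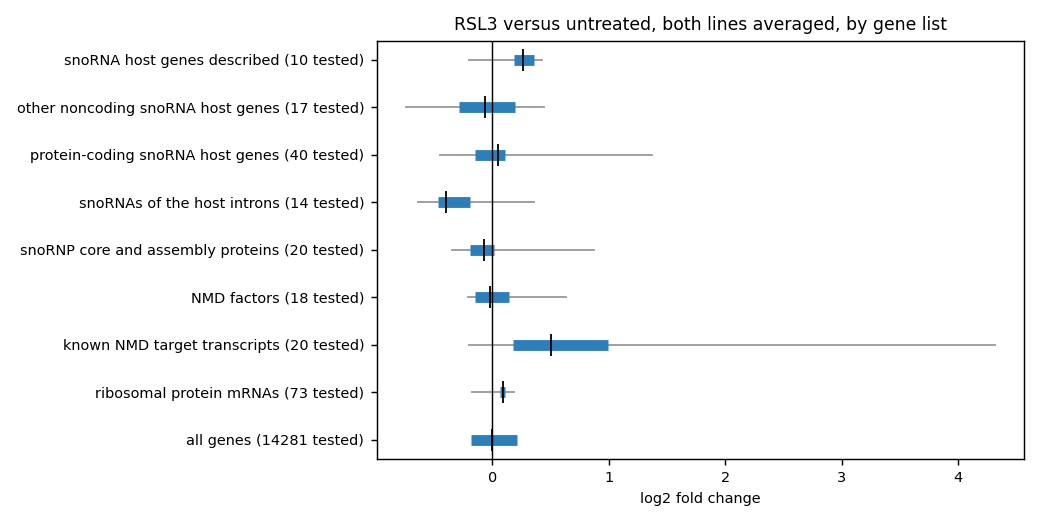
Log2 fold change for RSL3 against untreated cells, averaged over both lines, by gene list. Ticks are medians, thick bars the interquartile range and thin lines the full range (not drawn for all genes). The described host genes have a median of 0.27 and the snoRNAs of their introns a median of -0.40.

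Other genes of the same pathway were described from lists. Of 22 other noncoding snoRNA host genes in the table, 17 were tested, and 0 were higher and 2 lower in the averaged RSL3 comparison, SNHG10 by 0.74 ± 0.13 (FDR 0.00172) and SNHG3 by 0.32 ± 0.09 (FDR 0.0279). The list had a median of -0.06, and 15.5% of all genes were called. Of 40 protein-coding hosts, 3 were higher and 3 lower, a share near the 15.5% of all genes called, with a median of 0.05. The smallest FDRs were those of HSPA8, the constitutive heat shock chaperone (1.37 ± 0.20, FDR 0.000393), PRRC2A (1.23 ± 0.28, FDR 0.00686) and the chromatin remodeller CHD4, which was lower by 0.44 ± 0.08 (FDR 0.00186).

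The snoRNA rows had few counts, at most 84 in a library, and 14 of the 36 rows listed were tested. One listed row, SNORA66, lies in RPL5 by RefSeq and was not among those tested. In the averaged RSL3 comparison 12 of the 14 lay below 0 with a median of -0.40, where that of all genes was near 0. SNORD31 of SNHG1 was the only row called, lower by 0.50 ± 0.16 (FDR 0.0413), where 15.5% of all genes were called. It was lower by 0.91 ± 0.23 in MM1R cells (FDR 0.0370, 3.36% of all genes called). In MM1S cells the value was -0.08 ± 0.22 (FDR 0.880). Its host had a fold change of 0.34 in the average. Reads in such a row can come from the mature snoRNA or from the unspliced intron, and the table does not separate them.

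In the averaged RSL3 comparison 15.5% of all genes were called. Proteins that bind snoRNAs or assemble their particles gave 0 calls among 20 tested, with a median of -0.07. NMD factors gave 1 call among 18, UPF3A, a paralog of the NMD factor UPF3B (0.64 ± 0.14, FDR 0.00675). Of 20 transcripts known as NMD targets, 10 were higher and 0 lower, against 15.5% of all genes called, with a median of 0.51. The members called include GADD45A (1.15 ± 0.12, FDR 2.72e-05), ATF3 (4.32 ± 0.60, FDR 0.000249), DDIT3 (2.55 ± 0.29, FDR 6.60e-05) and ATF4 (0.91 ± 0.14, FDR 0.000468), which are also known as genes of the stress response, ATF4, ATF3 and DDIT3 as transcription factors and GADD45A in growth arrest. Ribosomal protein mRNAs gave 0 calls among 73, and 71 of them lay above 0 with a median of 0.09, where 50% of all genes lay above 0. By line, 37 of the 73 lay above 0 in MM1R cells (median 0.0006) and 72 in MM1S cells (median 0.18). The MM1S value includes MM1S RSL3 replicate 1. Without treatment, all 73 ribosomal protein mRNAs lay higher in MM1R than in MM1S cells, where 48.8% of all genes did, with a median of 0.30 and 9 calls, a share near the 10.5% of all genes called. The 10 members had a median of 0.31.

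Genes that overlap a member or start near it were read for shared reads and shared promoters. SLC3A2, the heavy chain of the cystine importer, starts 51 bases from SNHG1 on the other strand and rose by 1.55 ± 0.29 in MM1R (FDR 0.00923) and 1.69 ± 0.29 in MM1S cells (FDR 0.00577), where SNHG1 had 0.24 and 0.45. ZBTB37, which starts 93 bases from GAS5, and ZNFX1, which starts 216 bases from ZFAS1, did not pass in either line after RSL3. DIPK1B lies on the other strand of SNHG7 and shares 1482 exonic bases with it, and it rose in the averaged comparison by 0.65 ± 0.16 (FDR 0.0142). The use of strand in counting is not given in the sources used here, so reads of SNHG7 and DIPK1B cannot be told apart, and the level of SNHG7 is uncertain to that extent. The same holds for SNHG8 and PRSS12, which share 2487 exonic bases, for SNHG6 and MCMDC2, which share 1488, and for ZFAS1 and ZNFX1, which also share exonic bases. In MM1S cells with RSL3, DIPK1B averaged 4.56 CPM against 54.3 CPM for SNHG7, and PRSS12 0.577 CPM against 73.7 CPM for SNHG8. MCMDC2 averaged 1.09 CPM against 31.4 CPM for SNHG6, and ZNFX1 18.6 CPM against 43.5 CPM for ZFAS1. These levels come from the same counts, so they do not show how shared reads were assigned. GAS5 shares 132 exonic bases with GAS5-AS1, SNHG12 shares 8 with TRNAU1AP, SNHG5 shares 715 with the pseudogene PKMP3 on its own strand, and SNHG5 and SNHG16 each overlap exons of a gene model that has no symbol.

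The genes outside all lists whose log2 CPM, centred within each line, correlated best with the mean of the members over the 18 libraries were CYSTM1 (r = 0.92), GMEB2 (0.92), NAA80 (0.92), CELF6 (0.91) and TESC (0.90). Without MM1S RSL3 replicate 1 these values were 0.82, 0.81, 0.79, 0.78 and 0.76. TESC rose with RSL3 in MM1S cells by 2.35 (FDR 0.0439), and the other 4 passed in neither line.

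The members can be ordered by level only per length. In untreated MM1R cells, on the length of the canonical GENCODE transcript, SNHG16 (241 ± 61.2 CPM per kb) and SNHG1 (159 ± 27.3) were highest and SNHG15 (6.31) lowest. On the combined exon length, SNHG1 (46.6 CPM per kb) was highest and SNHG16 (20.8) second. The lengths of the canonical models range from 498 bases for SNHG16 to 6166 for SNHG8, so the order depends on the model.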

How the data were processed

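Total RNA of 18 cultures was sequenced. The deposited table holds raw read counts per gene symbol, which the authors made after FastQC 0.11.5 and alignment with STAR 2.7.3a to hg19. The counting tool and its use of strand are not given in the sources used here. A second deposited table holds a normalized signal, each count divided by a DESeq2 size factor by the authors, and was used only for its size factors.

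Counts were tested with edgeR 4.0.16 (R 4.3.3), glmQLFit and glmQLFTest, TMM scaling, 6 group means over 18 libraries. Genes passed filterByExpr with a minimum count of 10 (14281 of 43735), and p-values were adjusted by Benjamini-Hochberg over all of them. A gene was called at an FDR under 0.05. CPM are TMM-scaled, and fold changes use edgeR's fitted values. Groups came from the labels. Labels give separate passages but no separate clones. The main fit pools the spread within the 6 groups over both lines, so p-values measure the spread between passages and not between clones. Passage numbers pair the libraries by the labels, and same-passage deviations correlated with a median of 0.25 in MM1R (0.03 to 0.52) and 0.42 in MM1S (0.22 to 0.68). The main fit has no block, and the block is an alternative. Library totals of 17635438 to 19368343 gave members 238 to 5356 counts per library.

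No 2 replicates matched within sampling noise (chi-square per degree of freedom 8.39 to 179 over 18 pairs). The tests were checked on simulated data. Changes of 1.5-fold were recovered in 17% of cases for RSL3 in MM1R, 15% in MM1S and 42% in the average. For changes of 4-fold these shares were 87%, 89% and 96%. The changed genes were drawn at random from all genes tested, and the simulated counts held no shared passage effect and no library that stood apart. These shares are therefore not those for the members. The line difference was not checked, since the same changes were put in both lines. Alternatives were RLE scaling, the authors' size factors, no filter, a minimum count of 50, DESeq2 1.42.0, a passage block, only the groups compared, a log2 fold change over 1 and leaving out each library. Positions came from GENCODE 44 on GRCh37 and from RefSeq.

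All 10 members were named, with up to 4 genes of each other list by smallest FDR, genes that overlap a member or start within 1000 bases, and the 5 most alike genes. Some overlapping genes are not reported here. The cell type markers IRF4, XBP1, CD27, MS4A1, CD14, CD3E and MPO were named outside this rule, after their values were seen. The members and lists were chosen with earlier results of these data known.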

Additional observations from a re-analysis of the deposited data

Results flagged for a closer look

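GAS5 with Fer-1 + RSL3 against untreated cells was flagged because its within-passage log2 ratios had opposite signs in the lines. They ran from -0.277 to -0.0152 in the 3 MM1R passages and from 0.0983 to 0.131 in the 3 MM1S passages, a difference of means of -0.255 (MM1R minus MM1S). This difference was not tested, and in neither line did GAS5 pass the test for this comparison (FDR 0.576 and 0.732).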

How the results depend on the processing

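Under RLE scaling and the authors' size factors, the 10 members kept their direction and their side of the threshold in all 10 comparisons. The number of members called moved as follows. With a log2 fold change over 1 required, it was 0 in each comparison, because the fold changes of the members lay between -0.72 and 0.70. The share of all genes past that size is not given here. For the other settings, shares of all genes tested that were called under the same setting are in parentheses. Without a filter on low counts, it was 3 for RSL3 in MM1S (4.36%) and 4 in the average (9.35%), 1 (SNHG12) in each of the Fer-1 + RSL3 versus RSL3 comparisons (0.973% to 2.05%), 2 in MM1R (5.54%) and 2 in MM1S (3.89%) for Fer-1 + RSL3 versus untreated, and 3 between the untreated lines (6.65%). With DESeq2 it was 2 for RSL3 in the average (19%) and 2 between the lines (11.7%). With the passage as a replicate block it was 3 for RSL3 in MM1S (13.3%), 6 in the average (30.4%), and 1 in MM1R (22.2%) and 2 in MM1S (14.7%) for Fer-1 + RSL3 versus untreated. The block changed no other member count. Its result between the untreated lines was not used, since each passage belongs to 1 line and the block cannot give the error of that comparison. With only the groups compared it was 0 for RSL3 in MM1S (0.0228%) and in the average (11.9%), 1 in MM1R (9.86%) and 3 in MM1S (7.13%) for Fer-1 + RSL3 versus untreated, and 3 between the lines (11.2%). Without both libraries that stood apart, a choice made after seeing the data, it was 0 for RSL3 in MM1S (1.11%) and in the average (11.7%) and 3 between the lines (14.2%). The causes were not tested.

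Signs turned in a few fold changes, none of them called. SNHG5 for Fer-1 + RSL3 versus untreated in MM1S was 0.00387 with a minimum count of 50 and 0.00576 with only the groups compared. SNHG12 for RSL3 in the average was -0.0108 with the block. Without both libraries that stood apart, RSL3 gave -0.36 for SNHG12 and 0.0125 for SNHG16 in MM1S, and -0.22 for SNHG12 in the average. Fer-1 + RSL3 versus RSL3 gave 0.0795 for SNHG6, 0.0696 for SNHG8, -0.112 for SNHG16 and 0.0345 for ZFAS1 in MM1S, and 0.0148 for SNHG8 in the average. Fer-1 + RSL3 versus untreated in MM1R gave 0.0493 for SNHG5, 0.139 for SNHG6 and 0.107 for ZFAS1, and the line difference gave 0.0404 for SNHG5, 0.0749 for SNHG8, 0.291 for SNHG12 and 0.0734 for ZFAS1.

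Leaving out 1 library at a time, the count of members called ran from 0 to 2 for RSL3 in MM1S, 0 to 4 in the average, 0 to 1 in each line for Fer-1 + RSL3 versus untreated, and 0 to 2 between the lines. The main fit called 3.67%, 15.5%, 9.22% (MM1R), 4.61% (MM1S) and 10.5% of all genes in these comparisons. Shares in the fits without 1 library are not given here, so these counts are not set against their own background. The call of SNHG7 for RSL3 held in 8 of 18 such fits in MM1S and 11 of 18 in the average, and its call for Fer-1 + RSL3 versus untreated in MM1S held in 13 of 18. Fold changes whose sign turned had these ranges. For RSL3 they were -0.0744 to 0.0699 for GAS5 and -0.232 to 0.156 for SNHG12 in MM1R, -0.362 to 0.368 for SNHG12 and -0.277 to 0.0126 for SNHG16 in MM1S, and -0.216 to 0.145 for SNHG12 in the average. For Fer-1 + RSL3 versus RSL3 in MM1R they were -0.0755 to 0.261 for SNHG1, -0.0154 to 0.131 for SNHG7 and -0.265 to 0.0526 for SNHG8. In MM1S they were -0.0861 to 0.225 for SNHG1, -0.299 to 0.0794 for SNHG6, -0.0476 to 0.218 for SNHG7, -0.508 to 0.0696 for SNHG8, -0.112 to 0.180 for SNHG16 and -0.601 to 0.0345 for ZFAS1, and in the average -0.0221 to 0.164 for SNHG1. For Fer-1 + RSL3 versus untreated they were -0.160 to 0.0451 for SNHG5, -0.196 to 0.135 for SNHG6, -0.0057 to 0.221 for SNHG8 and -0.224 to 0.102 for ZFAS1 in MM1R, and -0.0866 to 0.0625 for SNHG5, -0.0210 to 0.260 for SNHG15 and -0.191 to 0.0334 for SNHG16 in MM1S. Between the untreated lines SNHG1 ran from -0.118 to 0.131. In the line difference SNHG5 ran from -0.251 to 0.0403, SNHG6 from -0.0940 to 0.285, SNHG8 from -0.524 to 0.0748, SNHG12 from -0.446 to 0.291, SNHG16 from -0.256 to 0.128 and ZFAS1 from -0.563 to 0.0733. With 3 libraries a group, members without a call are not shown to be unchanged.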
